A study of Homo sapiens with 24 samples.

Results

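The 10 genes described here belong to the BCL2 family of cell death regulators: the pro-survival genes BCL2, BCL2L1 and MCL1, the pore-forming genes BAX and BAK1, and the BH3-only genes BBC3, PMAIP1, BCL2L11, BID and BIK. They were listed by name, with earlier results of these data known, and are 10 of 28907 gene symbols. Each gene's level is the sum over its transcripts, 77 in all, of TPM, a measure of abundance scaled for transcript length and for the library total. RNA was sequenced from A2780 and ES2, 2 established human ovarian cancer lines. Each line had 4 groups of 3 libraries: cells given a control siRNA (siCtrl), cells given an siRNA to the kinase gene VRK1 (siVRK1), cells given the solvent DMSO, and cells given luteolin, a plant flavonoid. The submitters label the genotype WT in all 24 samples and give no dose or time in the sources used here. Groups were taken from the sample titles, because the line and treatment labels count upward within groups (A2786 or siVRK2, for example). No source states whether replicate libraries stem from different cultures, and p-values cover only the spread between the sequenced libraries, which may be technical. In ES2 siVRK1, 2 libraries carry the same column name and are called a and b beside number 3. The comparisons ask how VRK1 knockdown and luteolin moved the family in each line, and whether the lines differed in this.

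BCL2 family proteins set whether the outer membrane of the mitochondrion stays closed. BAX and BAK1, once active, form pores that release cytochrome c and lead to caspase activation, and BCL2, BCL-xL (from BCL2L1) and the short-lived MCL1 protein hold them in check. BH3-only proteins such as PUMA (from BBC3), NOXA (from PMAIP1) and BIM (from BCL2L11) are made or activated under stress, bind the pro-survival proteins and in part activate the pore formers directly, and NOXA is known for its preference for MCL1.

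Several members make transcripts that differ in function, and the results below turn on 2 of them. The following 30-base stretches, read from the GENCODE release 29 transcripts (GRCh38, chromosome 1, minus strand), show the exon joins that tell the full-length MCL1 transcript MCL1-202, with 350 codons, from MCL1-201, with 271 codons, which skips the 248-base middle exon (chr1:150578244-150578491) and is known as the short form MCL-1S. Capitals mark the bases of the downstream exon.
MCL1-202 exon 1 to 2: agacggccttccaagGCATGCTTCGGAAAC
MCL1-202 exon 2 to 3: aaacaaagaggctggGATGGGTTTGTGGAG
MCL1-201 exon 1 to 2: agacggccttccaagGATGGGTTTGTGGAG
The join of MCL1-201 pairs the upstream side of the first line with the downstream side of the second.

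The same is shown for BBC3 (GRCh38, chromosome 19, minus strand). BBC3-203 has 4 exons and 193 codons, and BBC3-201 starts at another first exon, lacks the middle exons of 289 and 191 bases, and has 101 codons. Capitals again mark the downstream exon.
BBC3-203 exon 2 to 3: gcccgcgcccggacgGTCCTCAGCCCTCGC
BBC3-203 exon 3 to 4: cagtacgagcggcggAGACAAGAGGAGCAG
BBC3-201 exon 1 to 2: cctgccagatttgtgAGACAAGAGGAGCAG
Both transcripts end in the same exon, so they share the capitals of the last pair of lines.

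BBC3 and PMAIP1 had the largest changes of the family, and the 250 bases before their RefSeq starts (GRCh38.p14, 5′ to 3′) are therefore shown, with capitals for the stretch that matched a searched motif. The BBC3 window is chr19:47232668-47232917 on the minus strand, and the PMAIP1 window is chr18:59899746-59899995 on the plus strand.
BBC3: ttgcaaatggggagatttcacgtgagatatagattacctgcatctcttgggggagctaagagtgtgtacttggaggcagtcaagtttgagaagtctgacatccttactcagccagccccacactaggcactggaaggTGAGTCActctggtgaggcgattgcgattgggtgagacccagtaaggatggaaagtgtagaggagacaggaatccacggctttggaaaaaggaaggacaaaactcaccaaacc
PMAIP1: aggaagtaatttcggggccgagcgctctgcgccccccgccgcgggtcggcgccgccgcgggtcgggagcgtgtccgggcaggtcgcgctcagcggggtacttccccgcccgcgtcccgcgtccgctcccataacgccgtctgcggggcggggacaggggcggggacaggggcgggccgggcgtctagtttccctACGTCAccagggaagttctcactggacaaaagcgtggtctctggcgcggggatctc
The BBC3 stretch is the AP-1 motif TGANTCA, which reads the same on both strands and was found in 6.57% of 35116 such windows. The PMAIP1 stretch is the CRE core TGACGT, here on the minus strand, found in 7.10% of windows. Of the 8 members with a window, BCL2L1 held the E2F motif TTTNNCGC (5.92%), and none held the ATF4-CHOP motif TGATGNAA (3.14%). All motifs were searched on both strands, and a match describes letters, not binding. The BBC3 window holds the annotated start of BBC3-201, BBC3-202 and BBC3-204, whereas BBC3-203 starts 1473 bases downstream of the RefSeq start.

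Each library held 11792 to 12862 genes at 1 TPM or more, and TPM summed to 1000000 in every library, so sequencing depth is not known from the table. VRK1 was at 53.6 to 55.2 TPM in A2780 siCtrl and 7.98 to 11.3 TPM in siVRK1, and at 62.2 to 66.2 and 2.93 to 4.20 TPM in ES2. Among 10 epithelial and ovarian carcinoma markers, A2780 libraries summed to 5.48 to 12.2 TPM, with 7 of the 10 under 1 TPM in each group. ES2 libraries summed to 636 to 993 TPM, with 5 or 6 of the 10 under 1 TPM and MUC16 and MSLN at 0 in all 4 groups. The 8 leukocyte markers summed to 2.35 to 7.20 TPM in A2780 and 36.0 to 79.0 TPM in ES2. CD3E was at 0 in every group, and CD68 made up most of the ES2 sum, at 36.7 TPM in siCtrl, 75.4 TPM in siVRK1, 61.2 TPM in DMSO and 61.9 TPM in luteolin. The 5 endothelial markers summed to at most 1.59 TPM in A2780. In ES2 they summed to 31.1 to 40.1 TPM in siCtrl, siVRK1 and DMSO and to 9.79 to 10.9 TPM in luteolin, mostly from CDH5, at 37.8 TPM in DMSO and 8.86 TPM in luteolin. The 5 erythroid markers summed to 2.09 to 6.02 TPM in A2780, with HBA1 at 4.10 TPM in DMSO and 1.69 TPM in luteolin, and to at most 1.15 TPM in ES2, and HBB was at 0 in every group. The part of these markers in the results below was not tested.

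Before any treatment effect, the 2 lines carried different members. With the siCtrl and DMSO groups of each line averaged, all 10 members were called different between the lines (limma on log2(TPM + 1), Benjamini-Hochberg adjusted p under 0.05), 5 higher and 5 lower in ES2. In the background, 83.7% of 14328 genes tested were called, 34.3% higher and 49.4% lower in ES2, and the median gene lay 0.17 lower in ES2 on the log2 scale. Values marked relative below have the median change of all genes in that comparison subtracted.

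The BH3-only genes showed the widest gap. PMAIP1 was at 0.172, 0.123 and 0.146 TPM in A2780 siCtrl and at 0.230, 0.238 and 0.122 TPM in A2780 DMSO, against 46.5, 44.5 and 45.3 TPM in ES2 siCtrl and 27.9, 31.5 and 29.6 TPM in ES2 DMSO. BBC3 had the opposite pattern, at 28.9, 27.4 and 28.3 TPM in A2780 siCtrl and 25.2, 25.4 and 23.8 TPM in A2780 DMSO, against 1.56, 0.673 and 0.761 TPM in ES2 siCtrl and 1.10, 0.789 and 0.953 TPM in ES2 DMSO. Thus A2780 had PUMA-coding RNA and almost no NOXA-coding RNA, and ES2 the reverse, with no overlap of libraries for either gene. The ES2 minus A2780 log2 fold change was 5.01 ± 0.07 SE for PMAIP1 (adjusted p = 1.82e-23) and -3.81 ± 0.09 SE for BBC3 (adjusted p = 1.30e-19).

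Of the pore formers, BAX averaged 371 TPM in the A2780 controls and 132 TPM in the ES2 controls, a log2 fold change of -1.47 ± 0.04 SE (adjusted p = 2.11e-19). BAK1 averaged 26.8 and 30.5 TPM, and its call as higher in ES2 (0.10 ± 0.04 SE, adjusted p = 0.0367) was lost without A2780 siCtrl 2, A2780 DMSO 2, ES2 siCtrl 2, ES2 siCtrl 3 or ES2 DMSO 1 (adjusted p 0.0549 to 0.129). Among the pro-survival genes, BCL2L1 averaged 32.5 TPM in A2780 and 71.1 TPM in ES2 (log2 fold change 1.07 ± 0.04 SE, adjusted p = 2.33e-15). MCL1 averaged 196 and 233 TPM (0.24 ± 0.04 SE, adjusted p = 1.53e-05), and BCL2 4.02 and 3.10 TPM (-0.34 ± 0.08 SE, adjusted p = 4.86e-04). For BCL2 and BAK1 these averages hide opposite differences in the 2 control pairs. BCL2 was at 4.67 TPM in A2780 siCtrl and 1.95 TPM in ES2 siCtrl, but at 3.37 TPM in A2780 DMSO and 4.26 TPM in ES2 DMSO. BAK1 was at 27.5 TPM in A2780 and 40.8 TPM in ES2 for siCtrl, but at 26.0 and 20.3 TPM for DMSO. BCL2L11, which codes for BIM, averaged 2.29 TPM in A2780 and 3.95 TPM in ES2 (0.67 ± 0.17 SE, adjusted p = 0.00119), a call lost when non-coding transcripts were left out (0.23, adjusted p = 0.239). BIK, at 0.405 and 0.0751 TPM, was under 1 TPM on average in both lines. BID, the member cleaved by caspase-8, averaged 40.6 and 36.6 TPM, and its difference of -0.15 ± 0.06 SE (adjusted p = 0.0283) was 0.02 relative to the median gene. That call was lost under both other scalings and without A2780 siCtrl 2, siCtrl 3 or DMSO 3 or ES2 siCtrl 3, DMSO 1 or DMSO 3 (adjusted p 0.0504 to 0.0933 without a library).

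**Figure D1:**
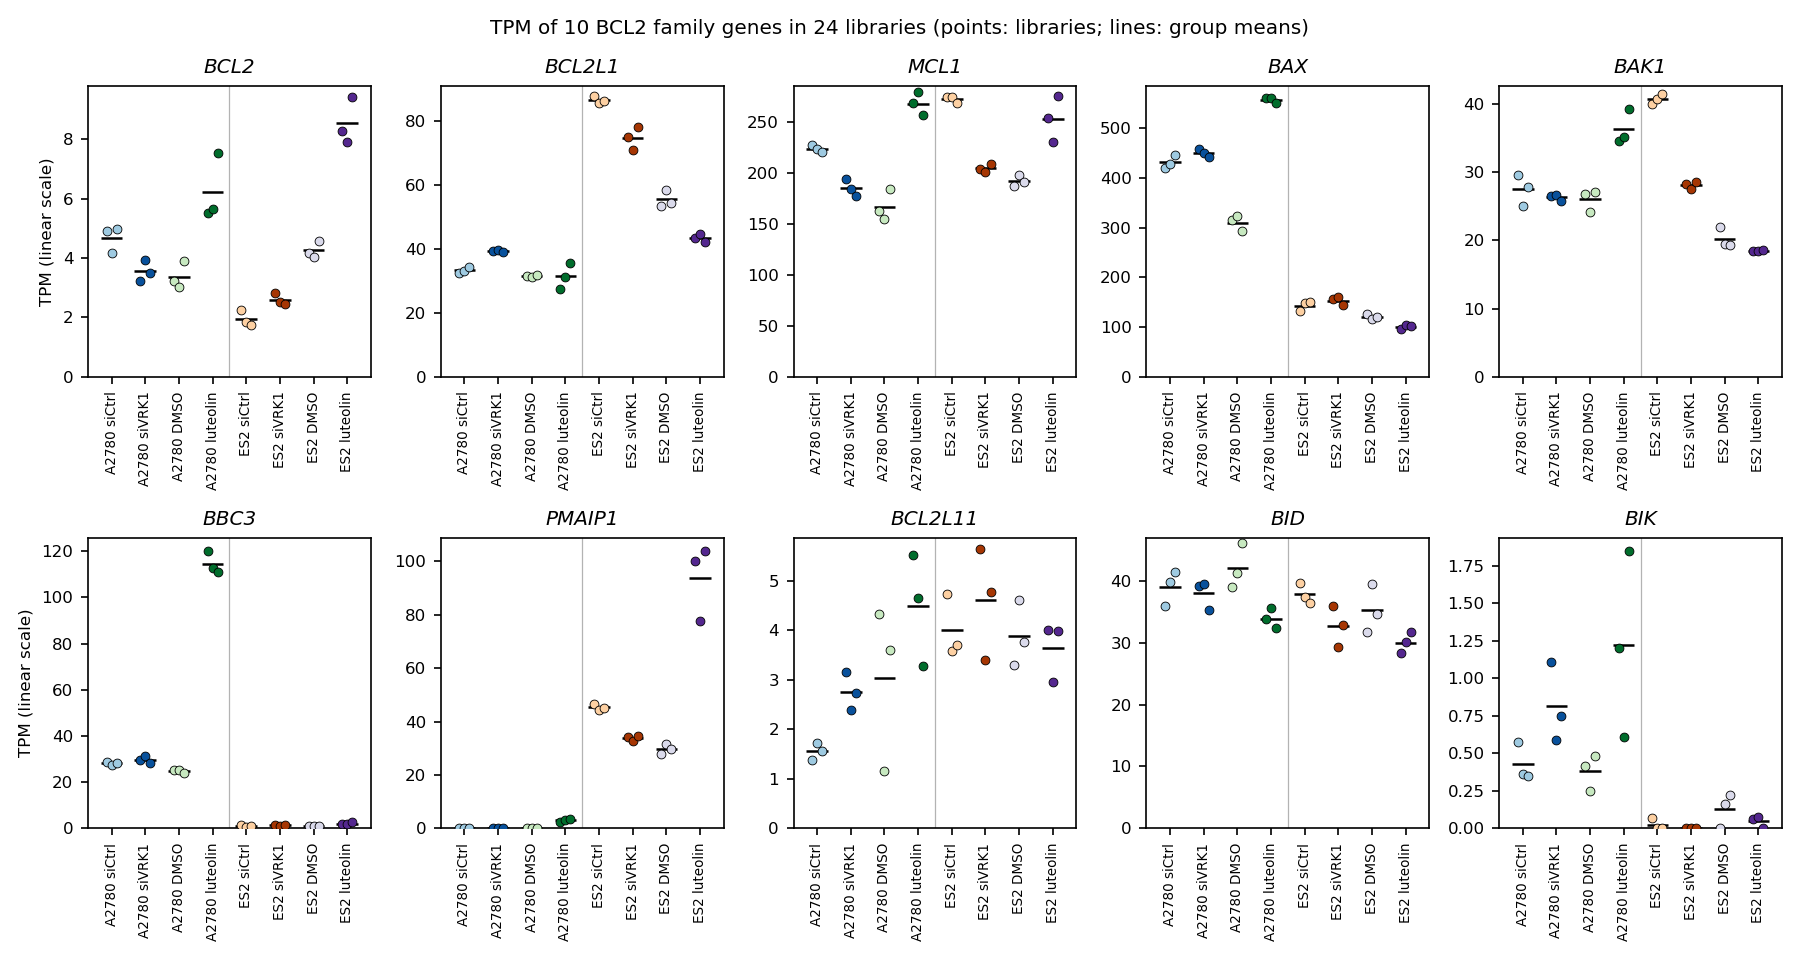
TPM of each of the 10 members (vertical axes, linear, each starting at 0) in the 8 groups of 3 libraries; points are libraries and horizontal lines are group means. BBC3 is high in A2780 and PMAIP1 in ES2, each is highest in the luteolin group of that line (114.7 TPM for BBC3 in A2780, 93.8 TPM for PMAIP1 in ES2), and BAX is higher in all A2780 groups than in any ES2 group.

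Over the 8 groups, BAX ran from 557 TPM in A2780 luteolin to 100.2 TPM in ES2 luteolin, and every A2780 group lay above every ES2 group. BCL2L1 ran the other way, from 86.7 TPM in ES2 siCtrl to 31.5 TPM in A2780 luteolin, whose libraries overlapped those of A2780 DMSO. MCL1 was the most abundant pro-survival member in every group, from 273 TPM in ES2 siCtrl to 167 TPM in A2780 DMSO. Among its 3 highest groups, ES2 siCtrl, A2780 luteolin and ES2 luteolin, each overlapped the next, but ES2 luteolin did not overlap A2780 siCtrl below it. Neighbours also overlapped among its 3 lowest groups, ES2 DMSO, A2780 siVRK1 and A2780 DMSO. BID varied least, from 42.1 to 30.0 TPM, and each group overlapped the next in the order. BCL2L11 stayed between 1.56 and 4.61 TPM, with overlap between neighbours down to A2780 siVRK1, above the lowest group, A2780 siCtrl.

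Knockdown of VRK1 moved few members in A2780. Of the 10 members tested, BCL2L1 rose and MCL1 fell, beside 40.9% of 13012 genes called in this comparison (13.8% higher, 27.0% lower). MCL1 was at 228, 224 and 221 TPM in siCtrl and at 195, 185 and 178 TPM in siVRK1. The groups did not overlap, and the log2 fold change was -0.27 ± 0.06 SE (limma, adjusted p = 0.00336). BCL2L1 was at 32.6, 33.1 and 34.5 TPM in siCtrl and at 39.4, 39.6 and 38.9 TPM in siVRK1, again without overlap (0.23 ± 0.08 SE, adjusted p = 0.0285). That call was lost without siCtrl 1, siCtrl 2 or any siVRK1 library, with adjusted p from 0.0577 to 0.0862.

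The pore formers and BH3-only genes of A2780 did not pass the test after VRK1 knockdown. BAX was at 431 ± 13.9 TPM (SD, n = 3) in siCtrl and 450 ± 8.33 TPM in siVRK1, and BAK1 at 27.5 ± 2.29 and 26.3 ± 0.541 TPM. BBC3 was at 28.2 ± 0.718 and 29.7 ± 1.68 TPM. BCL2L11 was at 1.37, 1.73 and 1.56 TPM in siCtrl and at 3.16, 2.38 and 2.73 TPM in siVRK1. These BCL2L11 libraries did not overlap, but the fit gave 0.55 ± 0.27 SE (adjusted p = 0.127). The 12 A2780 libraries share an estimate of the spread, and BCL2L11 lay between 1.16 and 4.33 TPM in the DMSO libraries. With the siCtrl and siVRK1 libraries alone, its adjusted p was 0.0119. BCL2 averaged 4.67 and 3.55 TPM (-0.32 ± 0.13 SE, adjusted p = 0.0693). Median-of-ratios scaling, which sets the median gene to no change, moved the share of called genes that were higher from 33.8% to 49.5%, and under it both MCL1 and BCL2L1 kept their calls.

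In ES2, VRK1 knockdown lowered 4 of the 9 members tested, MCL1, BCL2L1, BAK1 and PMAIP1, and raised BCL2. In the background 54.8% of 12507 genes were called, 26.8% higher and 28.0% lower, near the 5 of 9 members. BAK1 was at 40.1, 40.7 and 41.5 TPM in siCtrl and at 28.3, 27.5 and 28.6 TPM in siVRK1, a clear separation (-0.52 ± 0.05 SE, adjusted p = 5.21e-06). MCL1 was at 275, 275 and 270 TPM in siCtrl and at 204, 201 and 209 TPM in siVRK1 (-0.41 ± 0.05 SE, adjusted p = 2.57e-05). PMAIP1, whose protein binds MCL1, was at 46.5, 44.5 and 45.3 TPM in siCtrl and at 34.3, 32.8 and 34.5 TPM in siVRK1 (-0.41 ± 0.09 SE, adjusted p = 0.00183). In each of these 3 genes the siVRK1 libraries lay below all siCtrl libraries. BCL2L1 was at 88.0, 85.8 and 86.3 TPM in siCtrl and at 75.1, 71.1 and 78.2 TPM in siVRK1 (-0.21 ± 0.05 SE, adjusted p = 0.00250).

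BCL2 itself was low in ES2, at 2.25, 1.86 and 1.75 TPM in siCtrl and at 2.84, 2.51 and 2.44 TPM in siVRK1 (0.29 ± 0.10 SE, adjusted p = 0.0343). The groups did not overlap, but the call was lost without siCtrl 2, siCtrl 3 or either of the 2 unnumbered siVRK1 libraries (adjusted p 0.0573 to 0.114). BAX was at 143 ± 9.92 TPM in siCtrl and 153 ± 8.5 TPM in siVRK1 and did not pass (0.10 ± 0.06 SE, adjusted p = 0.167). BID was at 37.9 ± 1.69 and 32.7 ± 3.36 TPM (-0.21 ± 0.09 SE, adjusted p = 0.0582), and it passed without the unnumbered library a (-0.28, adjusted p = 0.0227). BBC3 was at 0.996 ± 0.486 and 1.28 ± 0.244 TPM, BCL2L11 at 4.01 ± 0.638 and 4.61 ± 1.13 TPM, and neither passed. With protein-coding transcripts alone BCL2L11 was called higher (0.73, adjusted p = 0.00316), their share of the gene being 44.4% ± 11.3 in siCtrl and 78.5% ± 9.61 in siVRK1. BIK was at most 0.0707 TPM in these 6 libraries and was not tested in ES2.

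MCL1 was called lower after VRK1 knockdown in both lines, whereas BCL2L1, BCL2 and BAK1 answered differently in the 2 lines. The effect in ES2 minus that in A2780 was -0.44 ± 0.09 SE for BCL2L1 (adjusted p = 6.13e-04), -0.46 ± 0.09 SE for BAK1 (adjusted p = 3.93e-04) and 0.61 ± 0.16 SE for BCL2 (adjusted p = 0.00487). These were 3 of 10 members, beside 33.9% of 14328 genes called for this difference (20.7% higher, 13.2% lower). For MCL1 the difference was -0.14 ± 0.08 SE (adjusted p = 0.195), and it was called under median-of-ratios scaling (-0.25, adjusted p = 5.18e-04). That scaling moved the share of called genes that were higher from 61.0% to 44.7%.

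Luteolin moved most of the family upward in A2780. Of the 10 members, 7 rose, BID fell, and BCL2L1 and BCL2L11 did not pass. In the background 65.5% of 13012 genes were called, 45.6% higher and 19.9% lower, and the median gene rose by 0.22 on the log2 scale. The median member changed by 0.67 against that 0.22. Beside these changes, mitochondrial mRNAs made up 7.10% ± 1.03 (SD, n = 3) of TPM in DMSO and 10.5% ± 1.40 in luteolin, and transcripts annotated as retaining an intron 3.38% ± 0.114 and 5.23% ± 0.158. Their part in the changes was not tested beyond the alternative without mitochondrial mRNAs, under which all 8 calls held. Median-of-ratios scaling moved the share of called genes that were higher from 69.7% to 46.5%.

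The BH3-only genes BBC3 and PMAIP1 led. BBC3 was at 25.2, 25.4 and 23.8 TPM in DMSO and at 120.0, 113 and 111 TPM in luteolin. The lowest luteolin library lay far above the highest DMSO library, and the log2 fold change was 2.17 ± 0.06 SE (relative 1.95, adjusted p = 3.05e-11). PMAIP1 went from 0.230, 0.238 and 0.122 TPM to 2.47, 3.02 and 3.43 TPM (1.73 ± 0.15 SE, relative 1.51, adjusted p = 6.05e-07). It remained below every ES2 library, and the added pseudocount of 1 understates the change of a gene at such levels. BIK, at 0.413, 0.245 and 0.485 TPM in DMSO and 1.2, 0.610 and 1.85 TPM in luteolin, also passed (0.65 ± 0.20 SE, relative 0.43, adjusted p = 0.0133), but not after quantile normalization (adjusted p = 0.564). BID fell from 39.0, 41.3 and 46.1 TPM to 33.8, 35.6 and 32.3 TPM (-0.30 ± 0.08 SE, relative -0.52, adjusted p = 0.00400). BCL2L11 was at 3.03 ± 1.66 and 4.48 ± 1.13 TPM, with overlapping libraries (0.53 ± 0.27 SE, adjusted p = 0.107), and it passed without DMSO 1 (0.78, adjusted p = 0.0265).

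Both pore formers rose with luteolin in A2780. BAX was at 315, 323 and 292 TPM in DMSO and at 560.2, 561 and 549 TPM in luteolin, the highest level of any member in any group (0.84 ± 0.04 SE, relative 0.63, adjusted p = 5.67e-09). BAK1 was at 26.8, 24.2 and 27.1 TPM and at 34.5, 35.2 and 39.3 TPM (0.46 ± 0.08 SE, relative 0.25, adjusted p = 1.39e-04). Libraries did not overlap for either gene.

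The pro-survival genes of A2780 did not share a response to luteolin. MCL1 rose from 162, 155 and 184 TPM to 269, 280 and 257 TPM (0.68 ± 0.06 SE, relative 0.47, adjusted p = 7.61e-07). BCL2 rose from 3.21, 3.01 and 3.89 TPM to 5.51, 5.66 and 7.52 TPM (0.72 ± 0.13 SE, relative 0.50, adjusted p = 3.55e-04), a call lost after quantile normalization (0.29, adjusted p = 0.0721). BCL2L1 was at 31.7, 31.1 and 32 TPM in DMSO and at 27.6, 31.2 and 35.6 TPM in luteolin, with overlapping libraries (-0.01 ± 0.08 SE, adjusted p = 0.902). Relative to the median gene it was -0.23, and median-of-ratios scaling called it lower (-0.27, adjusted p = 0.00923).

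**Figure D2:**
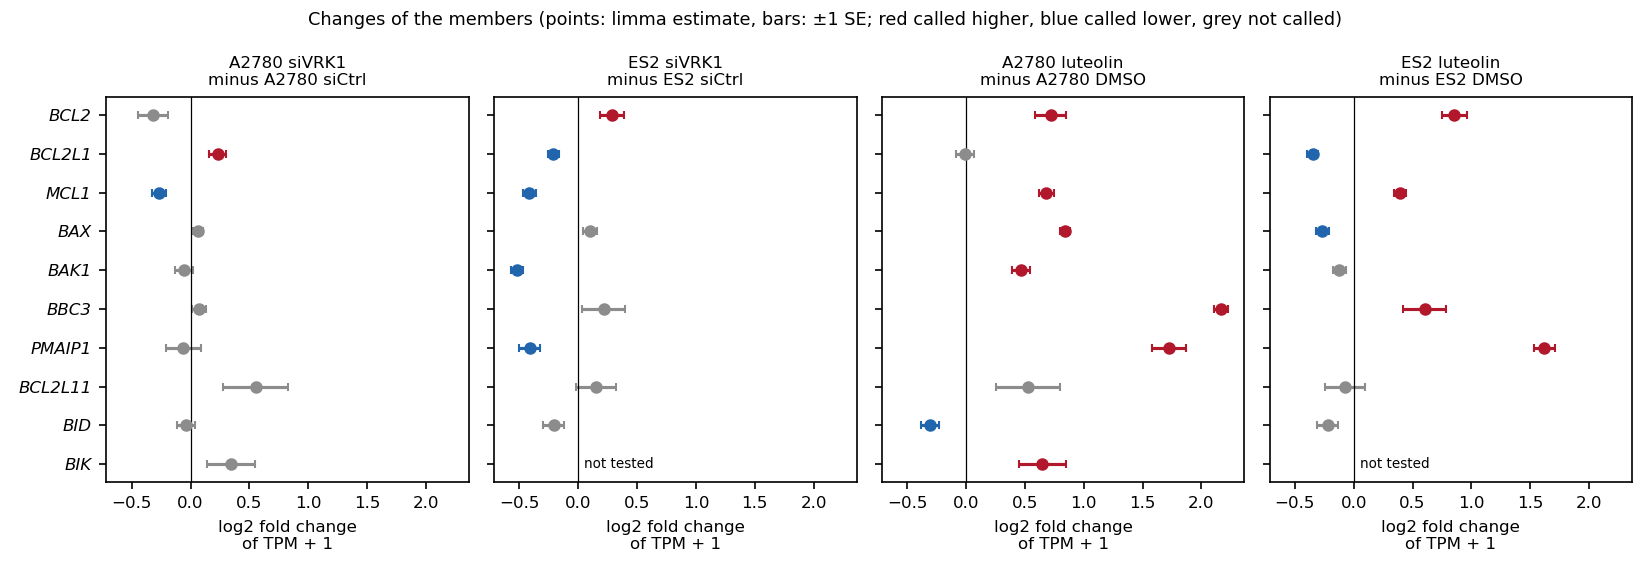
Change of each member on the log2(TPM + 1) scale (horizontal axes) in the 4 treatment comparisons; points are limma estimates, bars are 1 SE on each side, red is called higher, blue called lower, grey not called, and BIK was not tested in ES2. BBC3 and PMAIP1 have the largest changes in A2780 luteolin (2.17 and 1.73), and PMAIP1 in ES2 luteolin (1.62), whereas changes after siVRK1 lie between -0.52 and 0.55.

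In ES2, luteolin raised PMAIP1, BCL2, BBC3 and MCL1 and lowered BCL2L1 and BAX among the 9 members tested. In the background 48.4% of 12507 genes were called, 22.6% higher and 25.8% lower. PMAIP1 was at 27.9, 31.5 and 29.6 TPM in DMSO and at 100.1, 77.5 and 103.8 TPM in luteolin (1.62 ± 0.09 SE, adjusted p = 3.58e-08). The luteolin libraries lay above every other library of the study. BBC3 stayed low, at 1.10, 0.789 and 0.953 TPM in DMSO and at 1.68, 1.73 and 2.52 TPM in luteolin (0.60 ± 0.18 SE, adjusted p = 0.0159). Its call was lost without DMSO 2 (adjusted p = 0.0531), without luteolin 3 (adjusted p = 0.0706) and with protein-coding transcripts alone (0.11, adjusted p = 0.574). BCL2L11 was at 3.89 ± 0.661 and 3.65 ± 0.610 TPM and BID at 35.3 ± 3.89 and 30.0 ± 1.69 TPM, and neither passed. BID (-0.22 ± 0.09 SE, adjusted p = 0.0515, no overlap) was called lower under the 5 TPM filter, both other scalings and protein-coding transcripts, and without DMSO 1 or luteolin 3 (adjusted p 0.0204 to 0.0486).

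BAX fell in ES2, from 125, 117 and 119.6 TPM in DMSO to 95.3, 103 and 102 TPM in luteolin (-0.27 ± 0.06 SE, adjusted p = 0.00224). BAK1, at 21.9, 19.5 and 19.4 TPM and at 18.4, 18.5 and 18.5 TPM, lay lower in all luteolin libraries but did not pass (-0.12 ± 0.05 SE, adjusted p = 0.0797). Of the pro-survival genes, MCL1 rose from 188, 198 and 191 TPM to 255, 231 and 276 TPM (0.39 ± 0.05 SE, adjusted p = 5.67e-05). BCL2 rose from 4.17, 4.05 and 4.56 TPM to 8.29, 7.90 and 9.41 TPM (0.86 ± 0.10 SE, adjusted p = 3.04e-05), while BCL2L1 fell from 53.5, 58.5 and 54.5 TPM to 43.4, 44.7 and 42.1 TPM (-0.35 ± 0.05 SE, adjusted p = 7.77e-05). In none of these 4 genes did the libraries of the 2 groups overlap. How many of all genes lacked overlap was not counted, here or in the other comparisons, so overlap only describes the genes named.

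Among the members, the differences between the lines were widest for BBC3, BAX and BIK. The luteolin effect in ES2 minus that in A2780 was -1.11 ± 0.07 SE for BAX (relative -0.91, adjusted p = 2.46e-10), with BAX called higher in A2780 and lower in ES2. It was -1.56 ± 0.18 SE for BBC3 (relative -1.37, adjusted p = 7.67e-07), -0.59 ± 0.09 SE for BAK1 (relative -0.39, adjusted p = 1.87e-05) and -0.75 ± 0.22 SE for BIK (relative -0.56, adjusted p = 0.00674). BCL2L1 (-0.34 ± 0.09 SE, relative -0.14, adjusted p = 0.00357) and MCL1 (-0.29 ± 0.08 SE, relative -0.09, adjusted p = 0.00653) were also called, but lost the call under median-of-ratios scaling (adjusted p = 0.266 and 0.221). Thus 6 of 10 members were called lower by limma and 0 higher, also 0 at an unadjusted p under 0.05, beside 50.5% of 14328 genes called (14.7% higher, 35.8% lower) and a median difference of -0.20 over all genes. Median-of-ratios scaling moved the share of called genes that were higher from 29.1% to 50.8%. For PMAIP1 the difference depended on the pseudocount: it was -0.11 ± 0.14 SE with 1 (adjusted p = 0.561), -1.74 with 0.1 (adjusted p = 7.66e-04) and 0.89 with 5 (adjusted p = 6.23e-07). The fold rise of PMAIP1 in TPM without a pseudocount was larger in A2780, from a DMSO level of only 0.122 to 0.238 TPM. Its rise in TPM was larger in ES2.

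Transcript levels, estimated by the authors with kallisto, showed where within a gene the change lay. These shares carry no test and are described by their spread. The MCL1 exon-skipped transcript MCL1-201, whose join is printed above, held 2.50% ± 0.790 (SD, n = 3) of MCL1 TPM in A2780 DMSO and 10.5% ± 2.41 in A2780 luteolin. The lowest luteolin library was at 7.72% and the highest DMSO library at 3.40%, so the groups did not overlap. In TPM this was 4.25 ± 1.76 and 28.2 ± 7.24, or 23.6% of the gene's rise, and MCL1-202 carried 62.2% of it. In ES2 the share was 3.29% ± 0.316 in DMSO and 4.74% ± 1.90 in luteolin, with overlap. After VRK1 knockdown it was 1.83% ± 0.261 against 3.62% ± 0.406 in A2780 siCtrl, without overlap, and 0.844% ± 0.348 against 1.11% ± 0.323 in ES2. MCL1-201 also has a shorter last exon than MCL1-202, 422 against 2936 bases, so the estimate may rest on that end as well as on the join.

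BBC3-201 shares its first base with BBC3-202 and BBC3-204. BBC3-202 was at 5.37 ± 1.90 TPM, 21.6% ± 7.02 of BBC3, in A2780 DMSO and at 8.91 to 11.99 TPM in the luteolin libraries, so transcripts from this start were also listed without luteolin. BBC3-201 itself was at most 0.00818 TPM in the A2780 DMSO libraries and at 17.7 to 25.5 TPM in the A2780 luteolin libraries, where it made up 19.3% ± 3.35 of BBC3. It accounted for 24.6% of the gene's rise and BBC3-203, which codes for the longer protein, for 44.3%. The transcripts BBC3-205 and BBC3-206, annotated as retaining an intron, accounted for 11.9% and 10.5%. The AP-1 match printed above lies in the window at the start that these 3 transcripts share. In ES2, the protein-coding share of BBC3 was 88.2% ± 10.4 in DMSO and 50.7% ± 8.65 in luteolin, so that much of its small rise there fell on transcripts with no annotated protein.

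The ES2 rise of BCL2 was estimated to lie mainly on BCL2-201. It codes for the same 239 residues as BCL2-202 but has a last exon of 1725 instead of 5414 bases. The split between the 2 may therefore rest on that end. BCL2-202 was at 1.62 ± 0.0837 TPM in ES2 DMSO and 2.14 ± 0.366 TPM in ES2 luteolin. BCL2-201 held 35.4% ± 6.36 of BCL2 TPM in ES2 DMSO and 69.4% ± 3.24 in ES2 luteolin, at 1.5 ± 0.217 and 5.91 ± 0.382 TPM. In A2780 its share was 23.7% ± 5.55 in DMSO and 26.9% ± 9.22 in luteolin, with overlap. PMAIP1 in ES2 rose mainly through its protein-coding transcript PMAIP1-202 (84.7% of the rise), and its intron-retaining transcript PMAIP1-203 was at 0.575 ± 0.366 TPM in DMSO and 7.30 ± 1.72 TPM in luteolin. Of the splice forms of BCL2L1, BCL2L1-201, which codes for BCL-xL, held group means of 47.2% to 63.4% and BCL2L1-202, which codes for the pro-death BCL-xS, 0.347% to 4.0% over the 8 groups. BAX-202, which codes for BAX alpha, held 51.3% to 66.2%. Pairs of BCL2L11 and of BID transcripts changed order between group means, with no test made. BCL2L11-204 and BCL2L11-206 held 52.4% ± 8.88 and 18.7% ± 5.68 in ES2 siCtrl but 17.9% ± 8.47 and 40.7% (29.9% to 57.8% over the libraries) in ES2 siVRK1. Their levels were low, at 2.11 and 0.743 TPM in ES2 siCtrl and 0.888 and 1.77 TPM in ES2 siVRK1. BCL2L11-204 is annotated as subject to nonsense-mediated decay and not as protein-coding, whereas BCL2L11-206 is protein-coding, with 198 residues. BID-204 and BID-215 held 38.9% ± 4.38 and 27.7% ± 1.67 in A2780 DMSO but 27.2% ± 8.18 and 36.3% ± 0.750 in A2780 luteolin. The order of these means also changed in ES2, from 49.0% ± 8.72 and 25.9% ± 1.40 in DMSO to 33.7% ± 3.24 and 35.7% ± 4.37 in luteolin.

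**Figure D3:**
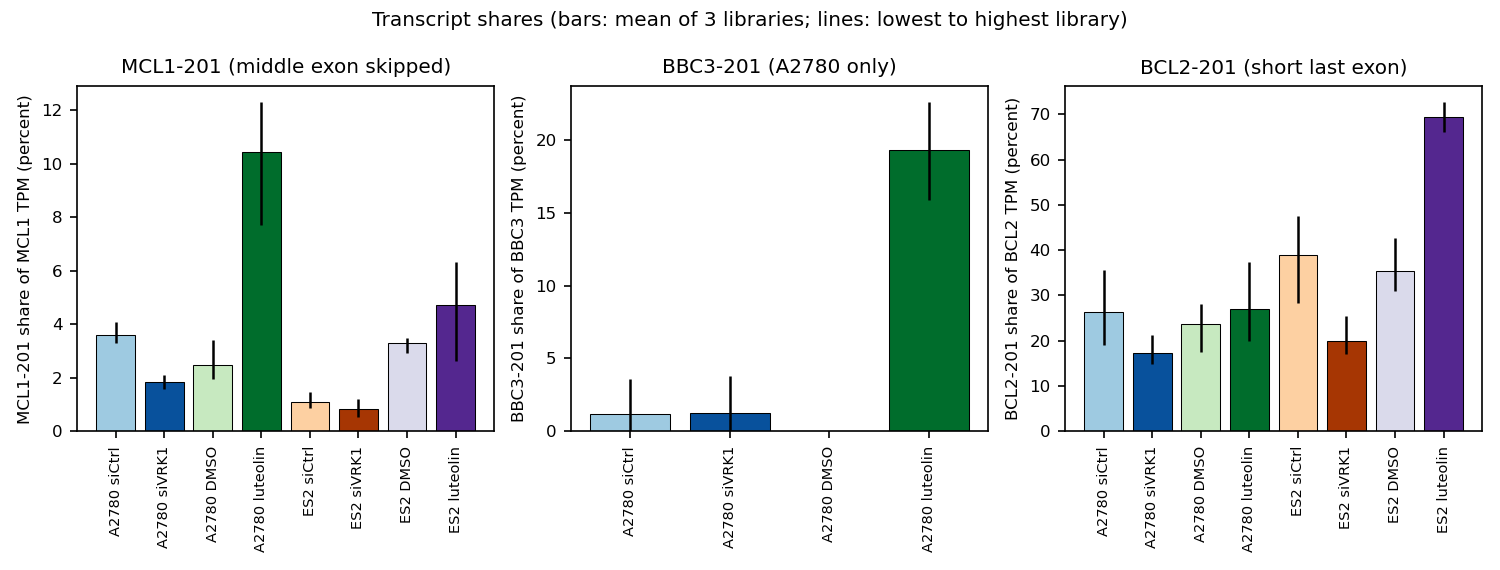
Share of a gene's TPM (percent, vertical axes starting at 0) held by MCL1-201, BBC3-201 and BCL2-201 in each group; bars are means of 3 libraries and lines run from the lowest to the highest library, with BBC3 shown for A2780 alone because its ES2 level is near 1 TPM. MCL1-201 and BBC3-201 are highest in A2780 luteolin (10.5% and 19.3%), and BCL2-201 in ES2 luteolin (69.4%).

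TPM is scaled for transcript length, so members can be summed. The sums count every transcript of a gene, although transcripts of a member can differ in function. In A2780 luteolin the pro-survival sum thus includes the exon-skipped MCL1-201 at 28.2 TPM. The pro-death sum there includes BBC3-201 at 22.2 TPM and the intron-retaining BBC3-205 and BBC3-206 at 14.2 and 9.6 TPM. The 3 pro-survival genes summed to 0.497 ± 0.0194 (SD, n = 3) times the 7 pro-death genes in A2780 siCtrl and 0.498 ± 0.0550 times in A2780 DMSO, against 1.33 ± 0.0471 and 1.2 ± 0.0313 in ES2. Over the 10 members, the ratio was thus below 1 in every A2780 library and above 1 in every ES2 library. After VRK1 knockdown it was 0.417 ± 0.00712 in A2780 and 1.11 ± 0.0561 in ES2, a log2 ratio change of -0.25 and -0.26, without overlap with siCtrl. With luteolin it was 0.408 ± 0.0111 in A2780, a log2 ratio change of -0.28 without overlap, and 1.23 ± 0.0174 in ES2, where it overlapped DMSO (0.04). MCL1 made up 72.6% to 87.7% of the pro-survival sum. BAX made up 74.2% to 82.1% of the pro-death sum in A2780, so the ratio there mostly sets these 2 genes against each other. In ES2, BAX made up 40.5% to 60.4%. In ES2 luteolin PMAIP1, at 93.8 TPM, was near BAX, at 100.2 TPM. Without MCL1 the log2 ratio change was 0.12 for A2780 siVRK1 and -0.44 for ES2 luteolin, both of the opposite sign. For ES2 siVRK1 it was -0.10 without MCL1 and -0.01 from mean log2 levels of the members. The pro-survival sum also leaves out BCL2A1, a pro-survival gene outside the 10 members. In ES2 it was at 39.8 TPM in siCtrl, 86.9 TPM in siVRK1, 67.5 TPM in DMSO and 130.1 TPM in luteolin. BCL2L2 is left out too, at 26.7 TPM in A2780 siCtrl and 21.6 TPM in ES2 siCtrl. The pro-death sum leaves out BAD, at 58.5 TPM in A2780 siCtrl and at 51.3 and 73.7 TPM in ES2 siCtrl and siVRK1. It also leaves out BOK, at 27.9 TPM in A2780 siCtrl and 0.266 TPM in ES2 siCtrl. Ratios with these genes added were not computed, so the side of 1 holds for the listed members only. The 5 BH3-only genes alone summed to 70.5 ± 3.15 TPM in A2780 DMSO and 157 ± 5.45 TPM in luteolin, and to 69.9 ± 6.26 and 129.5 ± 15.4 TPM in ES2. BID was the largest part of this sum in both DMSO groups (42.1 TPM in A2780, 35.3 TPM in ES2), and BBC3 in A2780 luteolin (114.7 TPM) and PMAIP1 in ES2 luteolin (93.8 TPM) were the largest with treatment. No test was made on these sums, since the members were chosen with earlier results known, and RNA does not give protein levels.

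**Figure D4:**
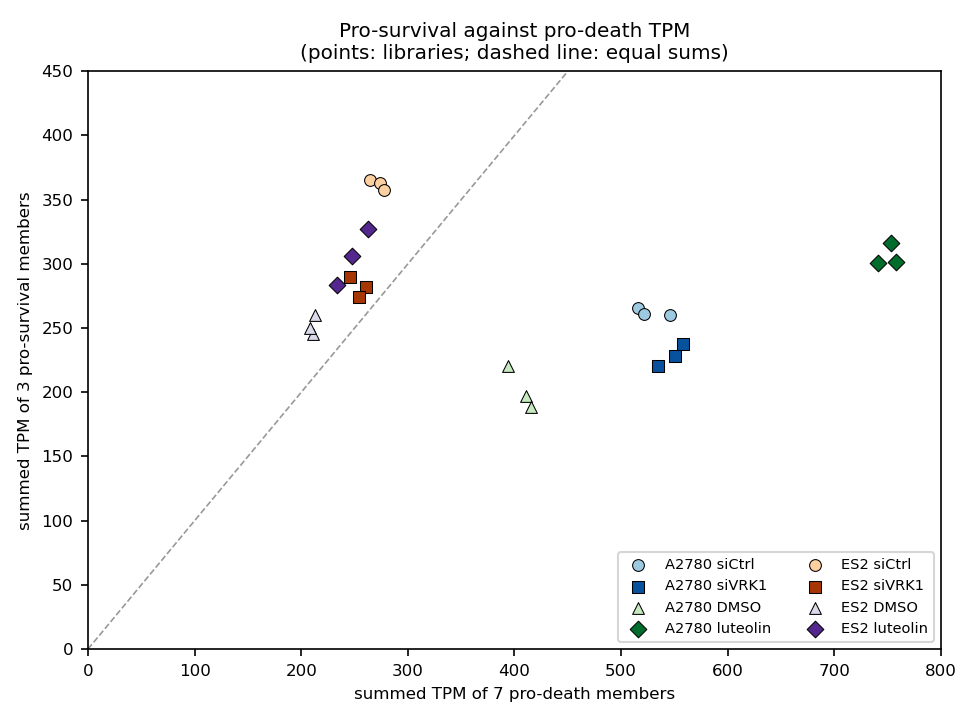
Summed TPM of the 3 pro-survival members (vertical axis) against that of the 7 pro-death members (horizontal axis) in the 24 libraries; the dashed line marks equal sums. All ES2 libraries lie above the line and all A2780 libraries below it, with A2780 luteolin farthest to the right, at 741 to 758 TPM of pro-death members.

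Of 13 other genes of the family, 9 were tested in A2780 and 7 in ES2. BCL2A1, a pro-survival relative of MCL1, was listed at 0 in all A2780 libraries, and in ES2 it rose from 39.8 to 86.9 TPM with siVRK1 (1.11 ± 0.08 SE, limma, adjusted p = 1.25e-07) and from 67.5 to 130.1 TPM with luteolin (0.94 ± 0.08 SE, adjusted p = 9.33e-07). Adding it to the pro-survival genes would therefore count in ES2 alone. There its rise with siVRK1 runs against the fall of the pro-survival sum, from 362 to 282 TPM. With luteolin its rise goes the same way as that of the sum, from 252 to 305.5 TPM. The ratio with BCL2A1 added was not computed. BOK, a pore former that does not need BAX or BAK1, averaged 28.2 TPM in the A2780 controls and 0.289 TPM in the ES2 controls. In A2780 it rose to 40.7 TPM with siVRK1 (0.54 ± 0.15 SE, adjusted p = 0.0142; lost without siCtrl 3 or siVRK1 1, adjusted p = 0.0659 and 0.0618) and fell from 28.4 to 19.5 TPM with luteolin (-0.52 ± 0.15 SE, relative -0.73, adjusted p = 0.0102; lost without DMSO 1, adjusted p = 0.05). The mitophagy receptor BNIP3L rose from 17.0 to 22.8 TPM with siVRK1 in A2780 and fell from 71.9 to 40.7 TPM in ES2, a difference between lines of -1.21 ± 0.11 SE (adjusted p = 5.03e-08). BAD, a BH3-only gene, rose in ES2 with siVRK1 (51.3 to 73.7 TPM) and with luteolin (73.5 to 96.8 TPM).

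Of 8 partners at the mitochondrial outer membrane and in mitochondrial dynamics, 2 fell with siVRK1 in A2780 and 7 in ES2 and no other passed, beside 27.0% and 28.0% of all genes called lower, with list medians of -0.12 and -0.18 against medians of -0.08 and 0.00 over all genes. VDAC3, 1 of the 2 called in A2780, lost its call under both other scalings and without siCtrl 1, siCtrl 3, siVRK1 2 or siVRK1 3 (adjusted p 0.0529 to 0.0730). With luteolin, 1 rose and 3 fell in A2780, and 6 fell in ES2, beside 19.9% and 25.8% of all genes called lower. VDAC1, a channel of the outer membrane, fell after VRK1 knockdown from 398 to 276 TPM in A2780 (-0.53 ± 0.04 SE, adjusted p = 8.66e-07) and from 414 to 281 TPM in ES2 (-0.56 ± 0.03 SE, adjusted p = 4.57e-09). With luteolin VDAC1 and VDAC3 were both called lower in both lines. For example, VDAC1 fell in A2780 from 373.5 to 279 TPM and VDAC3 in ES2 from 167 to 111 TPM.

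Downstream of the pores, 14 genes of the apoptosome, the caspases and their inhibitors were read. With siVRK1 2 rose and 6 fell in each line, beside 40.9% of all genes called in A2780 and 54.8% in ES2, the latter near the 8 of 14 of this list. BIRC2, which codes for the inhibitor of apoptosis cIAP1, rose in both lines, from 45.8 to 69.5 TPM and from 66.5 to 103 TPM. With luteolin 6 rose and 5 fell in A2780, where 45.6% of all genes were higher and 19.9% lower, and 3 rose and 3 fell in ES2, where 22.6% were higher and 25.8% lower. APAF1, the scaffold of the apoptosome, rose in A2780 from 3.53 to 7.23 TPM, and BIRC5, which codes for survivin, fell in A2780 from 113 to 52.6 TPM and in ES2 from 126 to 84.1 TPM.

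Of 14 transcription factors known to act on members of the family, 13 were tested in each line, and luteolin raised 8 and lowered 1 in A2780 and raised 7 in ES2. Of all genes, 45.6% rose and 19.9% fell in A2780 and 22.6% rose in ES2. DDIT3, which codes for the stress factor CHOP, rose from 19.5 to 114 TPM in A2780 (2.49 ± 0.09 SE, relative 2.28, adjusted p = 2.85e-10) and from 11.4 to 87.5 TPM in ES2 (2.79 ± 0.19 SE, adjusted p = 1.95e-07). JUN, a subunit of AP-1, rose in A2780 from 0.149 to 4.14 TPM (2.16 ± 0.14 SE, relative 1.94, adjusted p = 5.61e-08). In ES2, JUN was at 140.3 TPM in DMSO and 196.1 TPM in luteolin, where BBC3 was at 0.946 and 1.98 TPM. Any part of JUN in the BBC3 change was not tested. ATF4 rose in ES2 from 276 to 546 TPM (0.99 ± 0.07 SE, adjusted p = 4.33e-07). With siVRK1, 3 rose and 2 fell in A2780 (13.8% and 27.0% of all genes), and 5 rose and 4 fell in ES2 (26.8% and 28.0%). E2F1 and FOXO3 rose in ES2 from 14.1 to 36.3 and from 4.13 to 11.4 TPM.

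Of 10 genes that act on the stability of BCL2 family proteins, 9 were tested in each line. With luteolin, 4 rose and 3 fell in A2780 and 3 fell in ES2, beside 45.6% of all genes higher and 19.9% lower in A2780 and 25.8% lower in ES2, so the rises in A2780 and the falls in ES2 were near the background. FBXW7, which codes for a ubiquitin ligase subunit that targets MCL1, rose in A2780 from 5.03 to 19.4 TPM (1.76 ± 0.15 SE, relative 1.54, adjusted p = 5.62e-07), and USP9X, which codes for a deubiquitinase that stabilises MCL1, from 17.8 to 37.1 TPM (1.01 ± 0.11 SE, relative 0.79, adjusted p = 4.77e-06). With siVRK1, 1 rose and 1 fell in A2780 (13.8% and 27.0% of all genes) and 3 rose and 2 fell in ES2 (26.8% and 28.0%). BAG1, which codes for a BCL2-binding co-chaperone, fell in all 4 treatment comparisons, for example from 97.3 to 67.7 TPM with siVRK1 in ES2.

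The genes most like BBC3, PMAIP1 and BCL2 were ranked by Pearson r over the 24 libraries after subtraction of each line's mean, among 10221 genes. These libraries share lines and treatments, so r describes a common pattern over 8 groups. With the line means subtracted, r does not reflect differences in level between the lines. For BBC3 they were IER5 (r = 0.966), JUN (0.957) and CREG1 (0.947), for PMAIP1 GADD45B (0.967), PPP1R15A (0.953) and IER5L (0.945), and for BCL2 TMEM140 (0.943) and GGT7 (0.940). GADD45B, a stress-induced gene, went from 15 to 82.0 TPM with luteolin in A2780 and from 20.5 to 61.1 TPM in ES2, and PPP1R15A, which codes for the phosphatase subunit GADD34, from 18.2 to 98.1 TPM and from 75.4 to 198 TPM. IER5 went from 13.9 to 82.9 TPM in A2780 and from 28.5 to 46.2 TPM in ES2. In bulk RNA, a change in the share of cells that hold a transcript and a change in its level per cell cannot be told apart.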

How the data were processed

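Total RNA from 24 samples (column kit and library preparation by an outside company, per the labels' protocols) was sequenced. The authors quantified transcripts with kallisto after FastQC and named the build hg19, per the submitters' processing notes; the sources used here give no version, transcript set or strand handling. The deposited table holds TPM per transcript, per the file headers, and TPM keeps no depth. It has 193845 lines, of which 1958 repeat another line exactly and were dropped. TPM of the 191887 distinct transcripts was summed per symbol, leaving out 9542 transcripts without a symbol and 19 with more than 1 (0.514% to 1.03% of TPM). All 77 member transcripts matched GENCODE release 29 (GRCh38) by identifier; coordinates and sequences are from that build, and promoter windows from RefSeq GRCh38.p14. In ES2 siVRK1, 2 columns carry the same name and are called libraries a and b.

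limma 3.58.1 (R 4.3.3) was run with the trend option on log2(TPM + 1) for genes at 1 TPM or more in at least 3 libraries, and two-sided p-values were adjusted by Benjamini-Hochberg across every gene in the fit, with calls under 0.05. Comparisons within a line used its 12 libraries and those between lines all 24, 7 comparisons in all; the code was tested on simulated data. All 10 members were named in every comparison, with at most 2 rises and 2 falls per other list and the 3 most similar genes of the 3 members with the largest changes; some genes and a motif that these rules name are not reported here. Transcripts described were chosen after their values were seen. The members and lists were chosen with earlier results of these data known. Alternatives changed the pseudocount, filter, scaling, libraries in the fit, prior, block, transcripts and each left-out library.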

Additional observations from a re-analysis of the deposited data

Results flagged for a closer look

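For 9 results the effect of a treatment differed between ES2 and A2780 by limma's interaction contrast (adjusted p under 0.05, each value being the log2 effect in ES2 minus that in A2780). After VRK1 knockdown these were BCL2 (0.61), BCL2L1 (-0.44) and BAK1 (-0.46). With luteolin they were BBC3 (-1.56), BAX (-1.11), BIK (-0.75), BAK1 (-0.59), BCL2L1 (-0.34) and MCL1 (-0.29). In BCL2L1 after knockdown and in BAX with luteolin the 2 lines were called in opposite directions. The luteolin values of BCL2L1 and MCL1 lost the call under median-of-ratios scaling, and that of BIK under quantile normalization (-0.41, adjusted p = 0.133).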

How the results depend on the processing

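Over 12 alternative fits and each left-out library, 1279 of 1373 member values kept their direction and side of the threshold, 39 lost a call, 33 gained one and 22 changed sign. Of the other named gene values 2330 of 2388 kept both. Low TPM (BIK, PMAIP1 in A2780, BBC3 in ES2) and unknown depth limit what can be read.

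Under median-of-ratios scaling or quantile normalization, 3926 or 3697 genes were called higher (5938 as deposited) and 4515 or 4256 lower (2585) with luteolin in A2780, and 3596 or 3621 higher (2104) for the luteolin difference between lines, with 3266 lower (5125) after quantile normalization. The causes of these and the following changes were not tested. Members called higher after siVRK1 in A2780 numbered 3 with quantile normalization and 2 with the compared libraries alone (1 in the report), and lower 2 with protein-coding transcripts. In ES2 they numbered 0 with a pseudocount of 5, without a filter, with the compared libraries alone and with the replicate block in the other order, and 3 with protein-coding transcripts (1). With luteolin in A2780, 2 were lower under median-of-ratios scaling (1). For the siVRK1 difference, 5 were lower with that scaling and 4 with the compared libraries alone (2). For the luteolin difference, 1 was higher with a pseudocount of 5, that scaling or protein-coding transcripts, and 2 with quantile normalization (0). Left-out libraries gave 0 to 1 members higher after siVRK1 in each line.

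Signs changed under median-of-ratios scaling and quantile normalization for BAK1 (0.0280, 0.0572) and BID (0.0494, 0.0647) after siVRK1 in A2780, and for PMAIP1 in the luteolin difference (0.00378, 0.328; 0.887 with a pseudocount of 5). They changed for BAX (-0.0711, median-of-ratios), BBC3 (-0.0571, quantile), BCL2L11 (0.270, protein-coding) and PMAIP1 (0.00124, pseudocount 0.1) in the siVRK1 difference, and for BID between the control lines (0.00224, median-of-ratios). Others were BCL2L1 (0.0418, without mitochondrial mRNAs) and OPA1 (-0.0642, protein-coding) in A2780 luteolin and BCL2L11 in ES2 luteolin (0.0158, protein-coding). Left-out libraries gave -0.128 to 0.00807 for PMAIP1 and -0.0944 to 0.0135 for BID in A2780 siVRK1, -0.102 to 0.0771 for BCL2L1 in A2780 luteolin, -0.160 to 0.0416 for BCL2L11 in ES2 luteolin, -0.0206 to 0.0822 for BAX in the siVRK1 difference and -0.200 to 0.0243 for PMAIP1 in the luteolin difference.

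The log2 change of the pro-survival to pro-death ratio was 0.119 without MCL1 for A2780 siVRK1, -0.0952 without MCL1 and -0.0109 from mean log2 levels for ES2 siVRK1, -0.783 and -0.404 for A2780 luteolin, and -0.437 and 0.0955 for ES2 luteolin, with 0.0779 there from protein-coding transcripts. Left-out libraries gave -0.35 to -0.20 for A2780 luteolin and 0.02 to 0.06 for ES2 luteolin.

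With the replicate block in file order the members called numbered the same as without it in all 7 comparisons. In the other order BCL2 in ES2 siVRK1 lost its call (0.288, adjusted p = 0.0549), and BID was called lower there (-0.209, adjusted p = 0.0433) and in ES2 luteolin (-0.221, adjusted p = 0.0387). Same-numbered libraries deviated together with r of -0.053 to 0.041, so the numbers were not taken to pair them.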

Other observations

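The siCtrl and DMSO groups are controls of separate treatments and were not compared by a test. In ES2, BAK1 was at 40.8 ± 0.715 TPM (SD, n = 3) in siCtrl and 20.3 ± 1.45 TPM in DMSO, BCL2L1 at 86.7 ± 1.17 and 55.5 ± 2.65 TPM, MCL1 at 273 ± 3.12 and 192 ± 5.16 TPM, and BCL2 at 1.95 ± 0.263 and 4.26 ± 0.264 TPM. In A2780, BAX was at 431 ± 13.9 TPM in siCtrl and 310.0 ± 16.0 TPM in DMSO, and MCL1 at 224 ± 3.78 and 167 ± 15.4 TPM. For each of these 6 pairs the distance between the control means is wider than that from siCtrl to siVRK1 in the same line.

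The other VRK genes were read beside VRK1. VRK2 fell after siVRK1 from 26.3 to 21.4 TPM in A2780 (log2 fold change -0.28 ± 0.09 SE, limma, adjusted p = 0.0194) and from 28.5 to 22.4 TPM in ES2 (-0.34 ± 0.06 SE, adjusted p = 4.17e-04). VRK1 itself fell with luteolin in A2780 from 54.2 to 40.0 TPM (-0.43 ± 0.11 SE, adjusted p = 0.00357), and was at 60.3 and 61.5 TPM in ES2 DMSO and luteolin (0.02 ± 0.11 SE, adjusted p = 0.881).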
